A study of Mus musculus with 6 samples.

Results

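Prostanoids are short-lived lipid signals made from arachidonic acid, and a cell's response to them depends on which receptors it carries and on how fast the lipid is taken up and destroyed. Described here are 10 mouse genes that read, carry or break down prostanoids, out of 54232 genes in the count table. They are 7 receptors (Ptgfr, Ptgir, Ptger1, Ptger2, Ptger3, Ptger4 and Tbxa2r), 2 membrane carriers (Slco2a1 and Abcc4) and 1 breakdown enzyme (Hpgd). Members were chosen by gene symbol, with no measured value in the rule but with earlier results of these data known. All 10 were found in the table.

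Primary smooth muscle cells were prepared from mouse oviducts on day 2 of pregnancy and analyzed by RNA-seq, with 3 libraries from WT females and 3 from females in which Pbrm1 was conditionally deleted (Pbrm1 cKO). Pbrm1 encodes a subunit of the PBAF form of the SWI/SNF chromatin remodeling complex. All females were 8 to 12 weeks old and had been mated. In the uterine work of the same study the deletion was driven by a cre inserted at the progesterone receptor gene (Pbrm1 fl/fl/PR IRES-cre/+), and the labels of the oviduct libraries name no other driver. Such a cre acts wherever the receptor is or was expressed and therefore is not restricted to muscle. The labels call the control animals WT, whereas a supplementary legend names Pbrm1 fl/fl mice. The labels give neither the strain of the females nor whether each library came from 1 female or from a pool. The p-values therefore refer to the spread between these 3 libraries per group and not to a known number of animals. For each gene the edgeR test estimates this spread with help from the other genes. The title of the series names prostaglandin signaling in smooth muscle and the passage of embryos, and the comparison asks which of these genes differed when Pbrm1 was removed.

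Each prostanoid receptor is a membrane protein that passes its signal to a G protein. Receptors that work mainly through Gq (FP, EP1 and TP) raise intracellular calcium and contract smooth muscle, those that work mainly through Gs (IP, EP2 and EP4) raise cyclic AMP and relax it, and EP3 works mainly through Gi, which lowers cyclic AMP. Prostaglandins cross membranes poorly. Cells take them up with the carrier encoded by Slco2a1, oxidize them in the cytosol with the dehydrogenase encoded by Hpgd, and can export them through the ABC transporter encoded by Abcc4. The muscle wall of the oviduct contracts and relaxes to move the embryo, and prostaglandins are known to alter this motility.

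Library totals ranged from 15390818 to 18947947 counts, and the floor used here, 3 reads, equalled 0.159 to 0.193 CPM (read counts normalised for library size). The targeted gene Pbrm1 averaged 175 ± 7.09 CPM over the WT and 45.6 ± 4.39 CPM over the cKO libraries (SD, n = 3), which leaves 26.0% of the control level (log2 fold change -1.94, edgeR adjusted p = 9.13e-11). Of 15376 genes tested, 43.7% were called at an adjusted p of 0.05, with 21.9% higher and 21.8% lower in cKO, so that a call by itself sets a gene apart from few others. Markers of smooth muscle were present in every library, but so were those of other cell types, and no marker of any of the 6 lists was at 0 in a library. The summed level of 10 smooth muscle markers (6 higher and 1 lower in cKO) ranged from 3671 to 3753 CPM in WT and from 4630 to 5236 CPM in cKO. Leukocyte markers (12 genes, 11 of them higher and none lower in cKO) went from 808–859.4 to 1267–1358 CPM, and fibroblast markers (12 genes, 8 higher and 2 lower) from 4001–4604 to 5558–5899 CPM. Epithelial markers (12 genes, 7 higher and 1 lower) went from 1156–1255 to 1381–1540 CPM, endothelial markers (12 genes, 4 higher and 2 lower) from 577.8–631.3 to 513.9–546.4 CPM, and mesothelial markers (6 genes, 4 lower and none higher) from 204.7–215.3 to 153.4–155.2 CPM. The 2 lower endothelial markers were Kdr (182 ± 6.61 to 99.4 ± 11.3 CPM) and Eng (191 ± 16.2 to 154 ± 14.7 CPM; SD, n = 3). The 4 higher ones were Vwf, Flt1, Plvap and Egfl7, so the endothelial sum does not describe the list as a whole. Other sums also lean on abundant genes, such as Acta2 and Tagln for smooth muscle and Lyz2 for leukocytes. For fibroblasts this was Col1a1 (2612 ± 311 to 2765 ± 287 CPM, SD, n = 3, not called). The lower markers were Smtn for smooth muscle, Dpt and Thy1 for fibroblasts and Wfdc2 for epithelium. These bulk libraries cannot tell more cells of a type from more RNA per cell, and the part of these shifts in the changes described next was not tested.

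Of the 9 members that could be tested, 5 were called: Ptgfr, Ptgir, Ptger1 and Hpgd were higher in Pbrm1 cKO cells and Ptger3 was lower, while Ptger2, Ptger4, Slco2a1 and Abcc4 did not pass the threshold. Set against 43.7% of all tested genes, 5 of 9 is not far from the background. By direction, 4 of 9 were higher beside 21.9% of all tested genes and 1 of 9 was lower beside 21.8%. The median log2 fold change was 0.29 over the 9 tested members and 0.0016 over all tested genes. WT and cKO values did not overlap for these 5 genes and for Tbxa2r, which was too low to be tested; among all tested genes 53.5% had ranges that did not overlap.

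**Figure D1:**
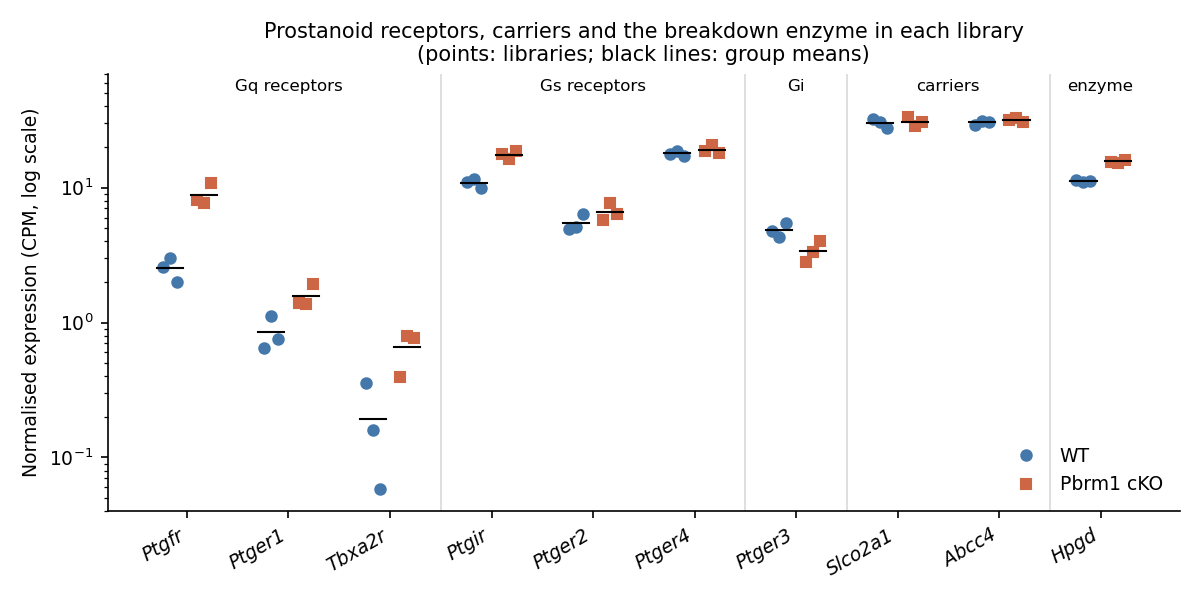
Normalised expression (CPM, log axis) of the 10 genes in each of the 6 libraries, with circles for WT, squares for Pbrm1 cKO and black lines for group means. Squares lie above circles without overlap for Ptgfr, Ptger1, Tbxa2r, Ptgir and Hpgd and below them for Ptger3, and are intermixed with the circles for the other 4 genes.

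To show the DNA in front of the genes with a called change, the stretch upstream of the start site is printed for the 4 called members that have an entry in the RefSeq promoter table (GRCm38.p6). Capitals mark matches on either strand to GGGCGG (GC box) or CANNTG (E-box, the class of site used by basic helix-loop-helix factors), and each stretch is written 5′ to 3′ on the strand of its gene.
Ptgfr, chr3:151837631-151837778, minus strand: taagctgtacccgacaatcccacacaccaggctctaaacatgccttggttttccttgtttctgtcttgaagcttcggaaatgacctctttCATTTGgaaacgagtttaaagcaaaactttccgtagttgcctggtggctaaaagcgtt
Ptgir, chr7:16906240-16906489, plus strand: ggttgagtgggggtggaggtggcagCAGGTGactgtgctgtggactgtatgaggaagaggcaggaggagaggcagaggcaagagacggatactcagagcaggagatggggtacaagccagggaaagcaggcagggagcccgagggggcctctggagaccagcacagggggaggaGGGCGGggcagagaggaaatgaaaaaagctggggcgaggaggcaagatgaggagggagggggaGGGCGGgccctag
Ptger3, chr3:157566626-157566875, plus strand: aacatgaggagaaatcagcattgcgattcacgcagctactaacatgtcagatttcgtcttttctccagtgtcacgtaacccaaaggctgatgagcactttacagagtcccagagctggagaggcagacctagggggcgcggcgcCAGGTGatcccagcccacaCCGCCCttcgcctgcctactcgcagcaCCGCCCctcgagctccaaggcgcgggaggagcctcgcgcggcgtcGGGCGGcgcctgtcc
Hpgd, chr8:56294302-56294551, plus strand: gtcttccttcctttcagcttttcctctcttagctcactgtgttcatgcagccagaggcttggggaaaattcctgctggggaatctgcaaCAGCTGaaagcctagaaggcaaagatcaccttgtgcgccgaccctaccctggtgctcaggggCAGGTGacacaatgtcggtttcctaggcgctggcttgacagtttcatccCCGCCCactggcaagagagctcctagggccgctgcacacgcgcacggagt
The Ptgfr stretch has 148 bases, because the bases nearer to the RefSeq start lie within the Ptgfr gene of the count table, and the others have 250. It contains 1 E-box, and a GC box of the same promoter lies in the part not printed. Of the other stretches, that of Ptgir holds 2 GC boxes and 1 E-box, that of Hpgd 1 GC box and 2 E-boxes, and that of Ptger3 3 GC boxes and 1 E-box.

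Matches of this kind were common, and a match is a description and not a binding site. Within 250 bases upstream of the start, GC boxes were present in 32.7% and E-boxes in 66.2% of 32851 mouse promoters. In the same window 7 of the 11 entries for 9 members held a GC box and 9 of 11 held an E-box. Searched on both strands in the same way, TATAAA was present in 1 of 11 entries and in 12.4% of all promoters, and CCAAT in 3 of 11 and in 33.8%. TGTTCT, the core to which the progesterone receptor binds, was in 2 of 11 entries (Ptger2 and 1 of 2 for Abcc4) and in 16.1% of all promoters. TGANTCA (AP-1) and TGACGTCA (cyclic AMP response element) were in 0 of 11 entries and in 6.75% and 1.55% of all promoters. Within the same 250 bases, which for Ptgfr include the part not printed, the Ptger3 promoter was the richest in CpG of these 4. It had 21 CpG dinucleotides beside 10 for Ptgfr, 9 for Hpgd, 5 for Ptgir and a median of 6 over all promoters.

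Among the tested receptors, Ptgfr had the largest log2 fold change. It encodes FP, the receptor for PGF2α, which is known for luteolysis and for contraction of the uterus and oviduct. Ptgfr (ENSMUSG00000028036.6; GRCm38 chromosome 3, 151796502 to 151837630, minus strand) measured 2.60, 2.99 and 1.99 CPM in WT replicates 1, 2 and 3 against 8.15, 7.69 and 10.8 CPM in cKO. All 3 cKO libraries lay well above all 3 WT libraries, and the lowest cKO library was higher than the highest WT library by more than the spread within either group. The mean rose from 2.53 ± 0.506 to 8.88 ± 1.68 CPM (SD, n = 3), a log2 fold change of 1.79 (SE 0.18, 95% confidence interval 1.41 to 2.18, edgeR adjusted p = 3.3e-06). Only 1.74% of tested genes had a larger absolute log2 fold change. The call held in all 14 alternatives, with the highest adjusted p of 7.55e-05 after WT replicate 3 was left out. The counts behind it were small in WT (44, 56 and 34 reads) and larger in cKO (145, 145 and 168 reads).

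On the other strand at the start of Ptgfr the annotation places Gm43618, a transcript of the tentative annotation class TEC (chromosome 3, 151836505 to 151839955, plus strand). It runs head to head with Ptgfr, covering 1126 bases of its body and 2325 bases upstream of it, and shares 329 exon bases with it. No read was counted there in the 3 WT libraries, whereas 11, 10 and 9 reads were counted in the cKO libraries. The cKO libraries were at 0.576 ± 0.0441 CPM (SD, n = 3), at least 3.37-fold higher than the mean floor of the WT libraries at 3 counts per library. Gm43618 did not pass the filter on low counts. In the fit with no filter its edgeR adjusted p was 3.14e-07. That fit is not on the scale of the main fit. Ptgfr had an edgeR adjusted p of 4.1e-29 in it and of 3.3e-06 in the main fit, and Ptger2 had 0.155 and 0.135. Counting was strand-specific, so reads of Ptgfr itself were not counted for Gm43618 unless their strand was misassigned, which was not tested.

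Ptger1 and Tbxa2r, the other receptors of the contracting class, were expressed at low levels. Ptger1 encodes EP1, a PGE2 receptor that raises calcium. Ptger1 (ENSMUSG00000019464.6; chromosome 8, 83666678 to 83672753, plus strand) measured 0.650, 1.12 and 0.761 CPM in WT replicates 1, 2 and 3 against 1.41, 1.38 and 1.93 CPM in cKO. The ranges did not overlap, but WT replicate 2 came close to the lower cKO libraries. Means were 0.845 ± 0.247 and 1.57 ± 0.311 CPM (SD, n = 3), with a log2 fold change of 0.86 (SE 0.29, edgeR adjusted p = 0.0253). The call was lost with DESeq2 (adjusted p = 0.0807) and when WT replicate 1, WT replicate 3 or cKO replicate 3 was left out (edgeR adjusted p = 0.101, 0.0836 and 0.101).

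Tbxa2r encodes TP, the thromboxane receptor of platelets and vascular muscle. Tbxa2r (ENSMUSG00000034881.8; chromosome 10, 81328731 to 81335172, plus strand) had 6, 3 and 1 reads in WT and 7, 15 and 12 reads in cKO, or 0.355, 0.160 and 0.0586 CPM against 0.394, 0.796 and 0.772 CPM. All cKO libraries were above all WT libraries, though by 1 read between WT replicate 1 and cKO replicate 1, and 2 WT libraries were at or under the floor of 3 counts. Summed over libraries, 10 reads in WT and 34 in cKO gave a ratio of 3.43, scaled to the normalised library sizes used for CPM. Its exact 95% interval from 1.66 to 7.79 covers counting error only. The gene fell to the filter on low counts and has no test here. In the 5 alternative fits that tested it the log2 fold change ranged from 1.34 to 2.47 and passed the threshold in 3 (edgeR adjusted p from 0.0078 to 0.0769). The lowest of these came from the fit with no filter, which is not on the scale of the main fit.

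Of the receptors that relax muscle, Ptgir rose, whereas neither PGE2 receptor of this class passed the threshold. Ptgir encodes IP, the receptor for prostacyclin, a relaxant of vascular muscle that is also made in the oviduct. Ptgir (ENSMUSG00000043017.9; chromosome 7, 16906490 to 16910905, plus strand) measured 10.99, 11.5 and 9.89 CPM in WT replicates 1, 2 and 3 against 17.9, 16.3 and 18.6 CPM in cKO. The groups were clearly separate, with a gap between them larger than the spread within either. The mean rose from 10.8 ± 0.818 to 17.6 ± 1.18 CPM (SD, n = 3), a log2 fold change of 0.70 (SE 0.093, 95% confidence interval 0.50 to 0.90, edgeR adjusted p = 4.5e-05). The call held in all 14 alternatives, with an adjusted p of at most 0.000614, and 12.1% of tested genes had a larger absolute change.

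Ptger2 encodes EP2, a PGE2 receptor known for its role in ovulation and fertilization. Ptger2 (ENSMUSG00000037759.6; chromosome 14, 44988195 to 45003820, plus strand) measured 4.91, 5.08 and 6.32 CPM in WT replicates 1, 2 and 3 against 5.74, 7.75 and 6.37 CPM in cKO. The ranges overlapped, since WT replicate 3 lay above cKO replicate 1. With a log2 fold change of 0.29 (95% confidence interval -0.03 to 0.61, edgeR adjusted p = 0.135), the data allow values from no change to a rise of 1.53-fold. None of the 14 alternatives called it. On the other strand, exons of Gm49364 (144 bases, no reads in any library) and of Gm17173 (246 bases, group means of 0.0979 ± 0.0895 and 0.111 ± 0.0878 CPM; SD, n = 3) overlap those of Ptger2.

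Ptger4 encodes EP4, the PGE2 receptor that keeps the fetal ductus arteriosus open. Ptger4 (ENSMUSG00000039942.15; chromosome 15, 5206661 to 5244187, minus strand) measured 17.9, 18.6 and 17.3 CPM in WT replicates 1, 2 and 3 against 18.8, 20.6 and 18.01 CPM in cKO. WT replicate 2 lay above cKO replicate 3, so that the groups overlapped. The log2 fold change was 0.10 (95% confidence interval -0.07 to 0.27, edgeR adjusted p = 0.344). The upper end of this interval is a rise of 1.21-fold, and no alternative called it. On the other strand, exons of Ttc33 (82 bases) and of the processed pseudogene Gm15937 (1015 bases) overlap those of Ptger4.

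Ptger3 was the only receptor that was lower in cKO cells. It encodes EP3, the PGE2 receptor that mediates fever and, in muscle, opposes cyclic AMP. Ptger3 (ENSMUSG00000040016.16; chromosome 3, 157566892 to 157645888, plus strand) measured 4.79, 4.33 and 5.45 CPM in WT replicates 1, 2 and 3 against 2.81, 3.34 and 4.05 CPM in cKO. Every cKO value was under every WT value, with cKO replicate 3 close to WT replicate 2. The cKO cells held 3.40 ± 0.623 CPM, 70.1% of the 4.85 ± 0.560 CPM found in WT (SD, n = 3). The log2 fold change of -0.52 (SE 0.17) passed the threshold (edgeR adjusted p = 0.0223). This call was lost with DESeq2 (adjusted p = 0.058) and when WT replicate 3 or cKO replicate 1 was left out (edgeR adjusted p = 0.0948 and 0.103). Ptgfr, on the same chromosome, moved the other way.

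**Figure D2:**
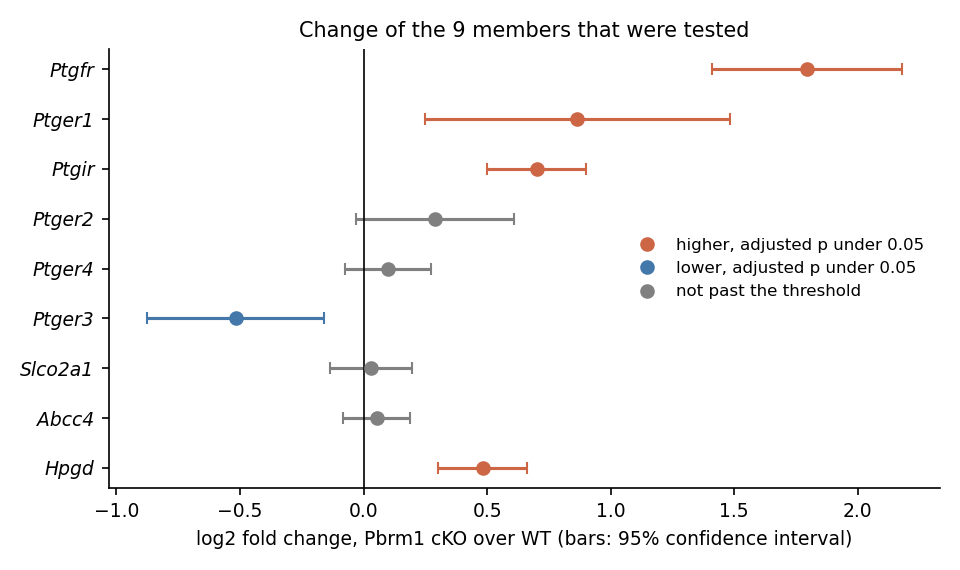
log2 fold change (Pbrm1 cKO over WT) of the 9 tested members with 95% confidence intervals from edgeR. Intervals of Ptgfr (1.41 to 2.18), Ptgir, Ptger1 and Hpgd lie above 0, that of Ptger3 lies below 0, and those of Ptger2, Ptger4, Slco2a1 and Abcc4 include 0.

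After uptake, prostaglandins are inactivated by the product of Hpgd, an NAD-dependent dehydrogenase of the cytosol, and this gene was higher in cKO cells. Hpgd (ENSMUSG00000031613.9; chromosome 8, 56294585 to 56321043, plus strand) measured 11.4, 11.1 and 11.1 CPM in WT replicates 1, 2 and 3 against 15.5, 15.3 and 16.1 CPM in cKO. Replicates were close together, and the distance between the groups was several times the spread within either. The mean rose from 11.2 ± 0.181 to 15.6 ± 0.392 CPM (SD, n = 3), a log2 fold change of 0.48 (SE 0.084, 95% confidence interval 0.30 to 0.66, edgeR adjusted p = 0.0004). Hpgd was called in all 14 alternatives with a log2 fold change between 0.46 and 0.50, and 21.5% of tested genes had a larger absolute change. Ptgr2, an enzyme of the next breakdown step, had a log2 fold change of 0.18 (edgeR adjusted p = 0.0385) that passed in 7 of 14 alternatives.

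Neither carrier passed the threshold. Slco2a1 encodes the prostaglandin uptake carrier PGT. Slco2a1 (ENSMUSG00000032548.14; chromosome 9, 102988712 to 103096002, plus strand) measured 32.2, 30.8 and 27.6 CPM in WT replicates 1, 2 and 3 against 33.2, 28.7 and 30.6 CPM in cKO. The groups were fully intermixed, and the log2 fold change was 0.03 (95% confidence interval -0.14 to 0.20, edgeR adjusted p = 0.789). Its sign turned when WT replicate 3 or cKO replicate 1 was left out (log2 fold change -0.033 and -0.027). Opposite its exons lie 104 bases of n-R5s89, which had no reads in any library.

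Abcc4 encodes MRP4, a transporter that exports prostaglandins and cyclic nucleotides. Abcc4 (ENSMUSG00000032849.14; chromosome 14, 118482692 to 118706219, minus strand) measured 29.3, 31.3 and 30.6 CPM in WT replicates 1, 2 and 3 against 31.6, 32.6 and 30.4 CPM in cKO. These ranges overlapped as well, with a log2 fold change of 0.05 (95% confidence interval -0.08 to 0.19, edgeR adjusted p = 0.528). The intervals limit a change of Slco2a1 to between 0.91-fold and 1.15-fold and of Abcc4 to between 0.94-fold and 1.14-fold. Within each library the ratio of Abcc4 to Slco2a1 CPM, not corrected for length, was 1.01 ± 0.101 in WT and 1.03 ± 0.0980 in cKO (SD, n = 3). Abcc4 and Ptger2 are on chromosome 14 with Pbrm1, at distances of 87.4 and 13.9 Mb, and neither was called.

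**Figure D3:**
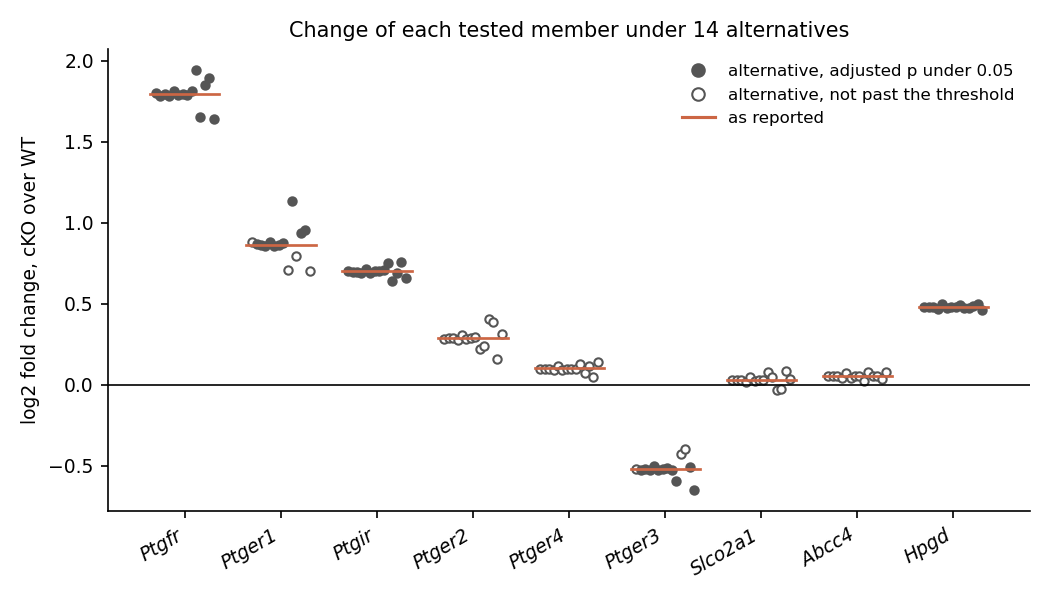
log2 fold change (Pbrm1 cKO over WT) of each tested member under 14 alternatives, with filled circles where the adjusted p was under 0.05, open circles where it was not, and an orange line for the value as reported. All circles are filled for Ptgfr, Ptgir and Hpgd, 4 of 14 are open for Ptger1 and 3 of 14 for Ptger3, and all are open for Ptger2, Ptger4, Slco2a1 and Abcc4.

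To compare genes with each other, CPM were divided by the length of the merged exons in kb, a level per length. In WT cells Hpgd had the highest level per kb (6.65 ± 0.107), followed by Abcc4 (4.76 ± 0.165), Ptgir (3.24 ± 0.245), Ptger4 (2.69 ± 0.0965) and Slco2a1 (2.23 ± 0.176; SD, n = 3). Ptger2 (1.05 ± 0.149) and Ptger3 (0.853 ± 0.0985) came next with ranges that overlapped, then Ptgfr (0.373 ± 0.0746), and last Ptger1 (0.155 ± 0.0453) and Tbxa2r (0.0996 ± 0.0784), whose ranges also overlapped. The other neighbours in this order did not overlap over 3 libraries.

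In cKO cells the order of levels per kb began with Hpgd (9.30 ± 0.233), Ptgir (5.28 ± 0.354) and Abcc4 (4.94 ± 0.172), the latter pair with ranges that overlapped. Ptger4 (2.88 ± 0.203) and Slco2a1 (2.28 ± 0.168) kept their places. Ptgfr (1.31 ± 0.248) moved past Ptger3 (0.598 ± 0.109) to a level that overlapped that of Ptger2 (1.27 ± 0.198), and Tbxa2r (0.341 ± 0.118) and Ptger1 (0.288 ± 0.0569) overlapped at the end. The order depends on which exons a gene's transcripts use: with the length of 1 coding transcript per gene, only 4 of 10 members in WT and 5 of 10 in cKO kept their place.

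The receptor mix was then summarized by the main G protein of each receptor. The summed level per kb of the 7 receptors was 8.45, 8.71 and 8.20 in the WT libraries and 11.4, 11.9 and 12.6 in the cKO libraries, higher in every cKO library. Receptors of the Gq class (Ptgfr, Ptger1 and Tbxa2r) made up 8.13%, 8.39% and 5.65% of this sum in WT and 14.5%, 15.2% and 18.7% in cKO. This share went from 7.39% ± 1.51 to 16.1% ± 2.23 (SD, n = 3), and the groups did not overlap. The largest part came from Ptgfr alone, whose share was 4.40% ± 0.756 in WT and 10.9% ± 1.6 in cKO.

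The Gi class, here Ptger3, held 9.95%, 8.74% and 11.7% in WT and 4.32%, 4.95% and 5.67% in cKO, again without overlap. The Gs class (Ptgir, Ptger2 and Ptger4) held most of the receptor level in both groups, with 81.9%, 82.9% and 82.7% in WT and 81.1%, 79.9% and 75.6% in cKO. The groups did not overlap, but their difference of -3.60 percentage points became 0.742 with the length of 1 coding transcript per gene, so the sign for the Gs class depends on the length used. With those lengths the difference was 7.09 percentage points for Gq and -7.83 for Gi. With merged exon lengths and the PGD2 receptors added, Ptgdr to Gs and Ptgdr2 to Gi, the differences were -4.32 for Gs, 8.41 for Gq and -4.09 for Gi. These shares carry no test, and they are of RNA and not of receptor protein.

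Within the Gs class Ptgir rose relative to Ptger4, which was not called. The level of Ptgir per kb was 1.23, 1.23 and 1.14 times that of Ptger4 in the WT libraries and 1.90, 1.57 and 2.06 times in the cKO libraries. Which of these receptors has the higher level depends on the length used: with the length of 1 coding transcript per gene, Ptgir was below Ptger4 in both groups, at mean levels of 3.27 and 5.48 per kb in WT and of 5.32 and 5.87 per kb in cKO. The Ptgfr level was 0.448 ± 0.137 of the Ptger3 level in WT and 2.20 ± 0.253 times it in cKO (SD, n = 3), so that their order turned in every cKO library. With the length of 1 coding transcript per gene it did not turn on average, since the cKO means were then 1.34 per kb for Ptgfr and 1.62 per kb for Ptger3. The ratio of Ptgfr to Ptger3 joins the tested receptor with the largest rise to the only receptor called lower. A large shift therefore follows from the choice of this pair. Ratios between genes were not among the planned descriptions.

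**Figure D4:**
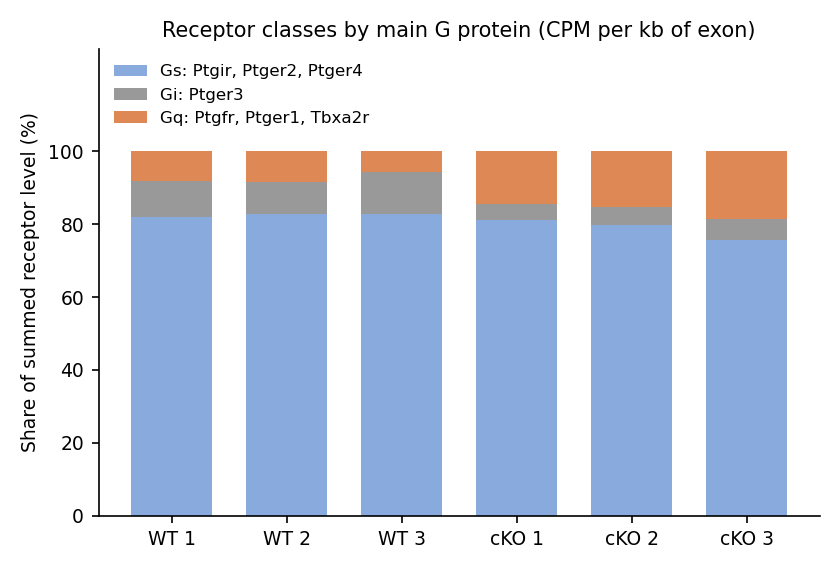
Share of the summed level per kb of the 7 receptors (percent, axis from 0) held by each G protein class in every library. The Gq class takes 5.65% to 8.39% in WT and 14.5% to 18.7% in cKO libraries, and the Gi class 8.74% to 11.7% and 4.32% to 5.67%.

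The rest of the pathway was described with 30 further genes, of which 28 could be tested and 14 were called (8 higher, 6 lower), beside 43.7% of all tested genes. Of the remaining prostanoid receptors, both for PGD2, Ptgdr was at 0 or 1 read in every library. Ptgdr2, which encodes CRTH2, a receptor of eosinophils, basophils and some helper T cells, had 4, 9 and 8 reads in WT and 17, 11 and 18 reads in cKO. Its log2 fold change was 1.14 (edgeR adjusted p = 0.0323), and the call held in 7 of the 12 alternatives that tested it.

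Enzymes of synthesis, which supply the ligands, were called in 7 of 13 cases tested beside 43.7% of all tested genes, with 5 lower beside 21.8% and 2 higher beside 21.9%. One of the lower calls, Akr1b3 (log2 fold change -0.17, edgeR adjusted p = 0.0474), passed in only 7 of 14 alternatives. The 4 with the largest called change were Ptgs2, the inducible cyclooxygenase (log2 fold change -1.47), Akr1c18, a reductase that inactivates progesterone and can form PGF2α (-1.40), Tbxas1, thromboxane synthase (0.60), and Ptgs1, the constitutive cyclooxygenase (-0.58). Set beside the receptors of their products, Akr1c18 was lower while Ptgfr was higher. That pair does not describe the synthesis of PGF2α as a whole. Akr1b3 went only from 52.7 ± 0.50 to 46.7 ± 4.2 CPM (SD, n = 3), and Cbr1 and Fam213b were not called. Tbxas1 was higher and so were the counts of Tbxa2r. The prostacyclin synthase gene Ptgis went from 290 ± 5.70 to 293 ± 8.92 CPM (SD, n = 3, not called) while Ptgir was higher. For PGE2, the synthase gene Ptges was higher (log2 fold change 0.38, edgeR adjusted p = 9.99e-05), and Ptges2 and Ptges3 were not called. Of the PGE2 receptors, Ptger1 was higher, Ptger3 was lower, and Ptger2 and Ptger4 were not called. Ptgis, Akr1b3, Cbr1, Fam213b and the PGE2 synthase genes were singled out after their values were seen, because they can make ligands of member receptors. The ratio of Ptgs2 to Hpgd CPM, the inducible step of synthesis over the first step of breakdown and not corrected for length, was 158, 166 and 166 in the WT libraries and 36.3, 54.3 and 36.1 in the cKO libraries.

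Of 4 other carriers, Slco2b1, an organic anion uptake carrier that macrophages also express, rose from 4.97 ± 0.376 to 11.6 ± 0.394 CPM (SD, n = 3) with a log2 fold change of 1.22 and an edgeR adjusted p of 1.2e-06, and Slco4a1 fell (log2 fold change -0.83, edgeR adjusted p = 0.00994). Of the 8 G protein alpha subunits on the list, which couple to the receptors, 3 were called, beside 43.7% called in either direction among all tested genes. All 3 were higher by a small amount, beside 21.9% of all tested genes called higher. With edgeR 0 were lower, also at an unadjusted p under 0.05, and 0 were lower with DESeq2. The 3 were Gnas, the Gs subunit (log2 fold change 0.21), Gnai2, a Gi subunit (0.18), and Gna12 (0.17). The Gq subunits Gnaq and Gna11 were not called (log2 fold change -0.11 and -0.01).

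**Figure D5:**
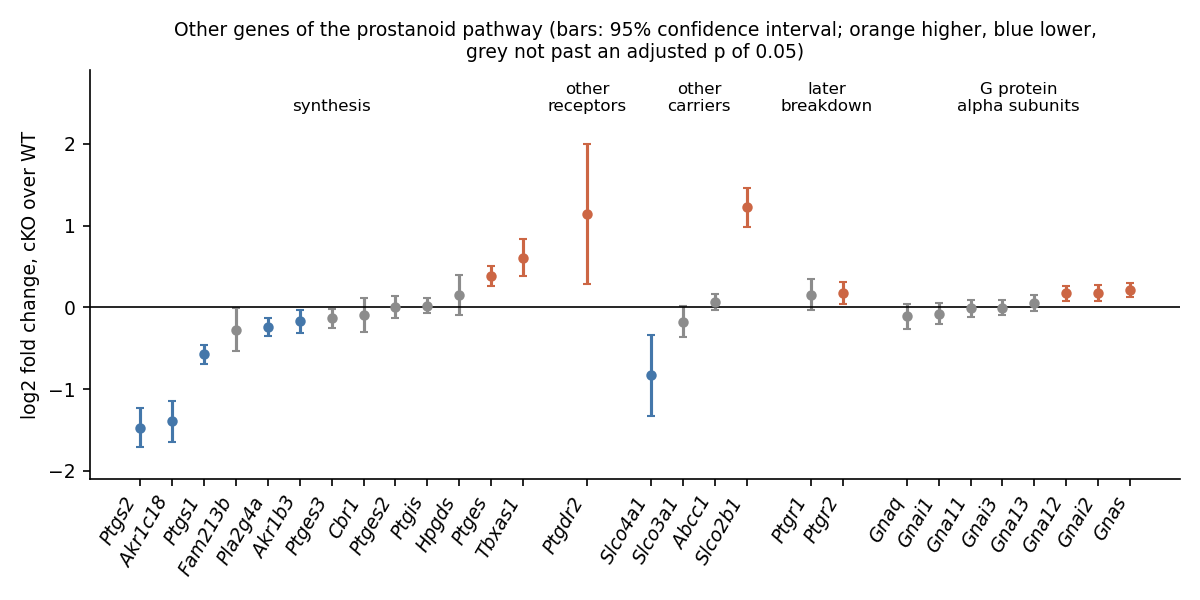
log2 fold change (Pbrm1 cKO over WT) with 95% confidence intervals of the 28 other pathway genes that were tested, grouped by role. Ptgs2 (-1.47) and Akr1c18 (-1.40) are the lowest and Slco2b1 (1.22) and Ptgdr2 (1.14) the highest, and the G protein alpha subunits lie close to 0.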

How the data were processed

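RNA-seq covered smooth muscle cells of the oviduct, which per the labels were prepared by enzymatic digestion, filtered, plated for 4 hours and kept for 2 more hours in fresh medium. Libraries were made from total RNA by random and poly(T) priming, with strand selection and depletion of targeted transcripts. The authors deposited whole-number read counts per gene; per the file headers, exons of the GENCODE M18 annotation were counted with featureCounts 1.6.4 in reverse-stranded mode, which by default leaves out reads placed at several sites or in several genes. The submitters' processing notes also name cutadapt, HISAT2 and GRCm38.p5.

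Gene symbols came from GENCODE M21 and matched 54079 of 54232 genes (99.72%). WT and cKO counts were compared with the two-sided quasi-likelihood test of edgeR 4.0.16 (R 4.3.3) after TMM scaling and removal of low genes by filterByExpr. P-values were adjusted by the Benjamini-Hochberg method over the 15376 genes kept, and the threshold was 0.05. CPM were computed with the TMM factors, and errors are SD over 3 libraries. DESeq2 1.42.0, limma-voom (limma 3.58.1), 3 other scalings, no filter, a filter of at least 10 counts in every library, a replicate block and the omission of every single library were the 14 alternatives, and an adjusted p of 0.01 was tried as a stricter threshold. The edgeR step was tested on simulated data. There every gene had the same excess spread between libraries, and few genes changed, none of them low and none by a small amount. The simulation therefore cannot vouch for calls on low genes or small changes. Replicates of a group differed by more than sampling noise (chi-square per gene from 1.31 to 1.60), so all 6 libraries were used. With 15390818 to 18947947 counts per library, the floor of 3 counts and the exact interval of Tbxa2r cover counting error only, whereas the edgeR intervals include the spread between libraries. The sources used here name no molecular identifiers.

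All 10 members were to be named, and from the other lists those called, up to the 4 with the largest change in each, with both PGD2 receptors, Pbrm1 and genes whose exons overlap those of a member, of which 1 is not reported here. Members and lists were chosen with earlier results of these data known. Promoters were taken from RefSeq (GRCm38.p6), where 9 of 10 members matched; Ptger1 was not used there. Protein sequences were not analysed here.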

Additional observations from a re-analysis of the deposited data

How the results depend on the processing

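Of 135 comparisons of a member's fold change with an alternative, 124 kept the direction and the side of the threshold, 9 lost the call and 2 turned in sign. The count of members called was 5 as reported, 3 with DESeq2, 3 at an adjusted p of 0.01 and between 3 and 5 when each library was left out in turn, with the lowest count of 3 without WT replicate 3. The calls lost were those of Ptger1 and Ptger3, and the cause was not tested; leaving out a library also reduces the samples. With no filter, 6 were called, Tbxa2r being added. Tbxa2r was also among the 5 called without WT replicate 1 and without cKO replicate 1, where Ptger1 and Ptger3, respectively, were lost. The sign of Slco2a1 turned without WT replicate 3 (log2 fold change -0.033) and without cKO replicate 1 (-0.0273), and its values without any 1 library ranged from -0.033 to 0.086. Over all genes, between 5532 and 7054 were called when each library was left out. With the length of 1 coding transcript per gene, which was chosen after seeing the data, 4 members in WT and 5 in cKO kept their place in the order of levels, and the difference in share (cKO minus WT) was 0.742 percentage points for the Gs class and -7.83 for the Gi class. When each library was left out, those differences ranged from -4.73 to -1.98 for Gs, 7.47 to 9.55 for Gq and -5.83 to -4.37 for Gi. Over all genes the median change (log2) was 0.00156 as reported and between -0.0103 and 0.0174 under the other scalings.

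Replicate numbers did not pair the samples: their deviations from the group means had correlations of -0.0316, 0.0442 and 0.111 within a number. Under a replicate block, 5 members, 6908 genes in all and 15 of the other prostanoid genes (14 as reported) were called. The depth limits Tbxa2r, Ptger1, Ptgdr and Ptgdr2, whose counts were at most 30 in every library.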
